A study of Mus musculus with 6 samples.

Results

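Sodium handling genes were followed through single-nucleus RNA sequencing of the left ventricle (LV) of R403Q mice, a model of hypertrophic cardiomyopathy. The 5 genes were chosen by name as genes of sodium entry and removal and of the calcium kinase tied to it, and all 5 were found among the 33696 genes in the files. They were Slc5a2 (ENSMUSG00000030781), Slc5a1 (ENSMUSG00000011034), Slc8a1 (ENSMUSG00000054640), Atp1b1 (ENSMUSG00000026576) and Camk2d (ENSMUSG00000053819). All hearts came from 12-week-old male mice that carried the heterozygous Myh6 allele labelled R404Q (R403Q) or were wild-type (WT) littermates. The WT-CD group was wild type on control diet (CD), the R403Q-CD group carried the mutation on the same diet, and the R403Q-EMPA group carried it on that diet with empagliflozin (EMPA) at 0.15 mg per g of diet, near 15 mg per kg of body weight. Mice entered the diets aged 9 to 10 weeks, and by the study's methods hearts for RNA were taken after 2 weeks, while the diet protocol in the labels runs for 16 weeks. Each group had 2 libraries, replicate numbers only name the libraries, and no wild-type heart received EMPA. The comparisons asked how the mutation, and EMPA on top of it, moved the RNA of these genes in each cell class.

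Empagliflozin blocks SGLT2, the sodium-glucose cotransporter encoded by Slc5a2, which is known for taking up glucose in the kidney tubule. SGLT1, encoded by Slc5a1, is the related cotransporter of the gut. In the cardiac muscle cell, sodium that enters is pumped out by the Na+/K+-ATPase, of which Atp1b1 encodes the beta 1 subunit, and is traded against calcium by the sodium-calcium exchanger NCX1, encoded by Slc8a1. Camk2d encodes the delta form of calcium/calmodulin-dependent kinase II (CaMKII), the main cardiac form, which acts on calcium and sodium channels.

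The libraries held between 31787308 and 45397128 unique molecular identifiers (UMIs, each standing for 1 captured RNA molecule). Of 69249 barcodes, 46005 nuclei were kept, 6409 to 9514 per library, with a median of 2663 to 4065 UMIs. Pairs of libraries shared between 23 and 56 barcode sequences. Clusters were named from marker lists, and "-like" marks such a name. The 10 classes with at least 20 nuclei in every library were compared, and the counts of a class were summed per library and expressed as counts-per-million values (CPM), relative to the class total of UMIs in that library. The largest classes were fibroblast-like (14167 nuclei), endothelial-like (12440) and cardiomyocyte-like (6960 nuclei), and the smallest tested were epicardial-like (245) and smooth muscle-like (211). Cardiomyocyte-like nuclei made up 19.5% and 25.03% of kept nuclei in the R403Q-EMPA libraries, against 12.9% and 14.2% in R403Q-CD and 11.9% and 9.37% in WT-CD. Without the filter at 5% mitochondrial UMIs, 16666 instead of 6960 nuclei were named cardiomyocyte-like. That filter took 4328 of 12727 and 4316 of 11220 barcodes in R403Q-EMPA. It took 2960 of 11043 and 3589 of 11117 in R403Q-CD, and 2866 of 13110 and 1868 of 10032 in WT-CD. In kept nuclei the cardiomyocyte-like class carried its defining markers in every library. Ttn was at 24106 to 31668 CPM and Myh6, the targeted gene, at 7612 to 9344 CPM. A summed Myh6 level cannot tell the mutant allele from the normal one, so it does not check the genotype labels. The members are compared across classes and groups, not with each other, because the values are not scaled to gene length.

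The bases ahead of each gene's start are shown because the 5 members differed in how widely their RNA was spread over cell classes. The sequences are the 250 bases before the start in RefSeq on GRCm38.p6, read along the gene's strand, with each CpG dinucleotide in capitals. The count files rest on GRCm39, so these positions belong to the RefSeq table alone, which matched 4 of the 5 members.
Slc5a1, chr5:33103969-33104218, plus strand: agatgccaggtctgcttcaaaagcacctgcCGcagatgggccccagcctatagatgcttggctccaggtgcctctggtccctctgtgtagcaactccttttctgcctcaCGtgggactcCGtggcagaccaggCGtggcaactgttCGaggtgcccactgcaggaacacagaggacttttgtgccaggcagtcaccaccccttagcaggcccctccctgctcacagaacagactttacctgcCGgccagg
Slc8a1, chr17:81738388-81738637, minus strand: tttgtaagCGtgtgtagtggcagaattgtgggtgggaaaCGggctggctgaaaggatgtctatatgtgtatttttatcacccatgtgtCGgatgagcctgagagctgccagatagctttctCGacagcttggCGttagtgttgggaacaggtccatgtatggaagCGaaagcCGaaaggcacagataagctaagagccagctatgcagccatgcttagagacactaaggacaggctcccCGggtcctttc
Atp1b1, chr1:164458356-164458605, minus strand: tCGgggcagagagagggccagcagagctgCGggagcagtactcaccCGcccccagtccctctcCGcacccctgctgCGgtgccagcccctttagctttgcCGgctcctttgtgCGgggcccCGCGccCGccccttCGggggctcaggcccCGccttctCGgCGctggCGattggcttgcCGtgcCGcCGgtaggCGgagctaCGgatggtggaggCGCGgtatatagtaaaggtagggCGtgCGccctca
Camk2d, chr3:126596701-126596950, plus strand: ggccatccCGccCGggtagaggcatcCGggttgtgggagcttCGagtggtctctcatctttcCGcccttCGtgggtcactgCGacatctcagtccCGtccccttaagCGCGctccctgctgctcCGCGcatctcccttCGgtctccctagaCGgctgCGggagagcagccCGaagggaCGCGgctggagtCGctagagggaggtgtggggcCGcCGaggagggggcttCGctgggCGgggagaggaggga
Slc5a1 had 6 CpG in this window and Slc8a1 had 8, near the median of 6 over 32851 promoters, whose quartiles were 2 and 16. Atp1b1 had 24 CpG and Camk2d had 23, more than 88.0% and 86.7% of promoters. The letters TATAAA occurred on neither strand of the 4 windows, while 12.4% of all promoters held them. These are descriptions of sequence and no reads in this series measured these windows.

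RNA of the SGLT2 target was close to the limit of detection in the ventricle. Slc5a2 gave 30 UMIs in all kept nuclei, with 6 and 5 in the WT-CD libraries, 6 and 5 in those of R403Q-CD and 6 and 2 in those of R403Q-EMPA. Of these, 14 lay in fibroblast-like nuclei, or 46.7%, while this class held 27.2% of all UMIs. The pooled level there was 0.263 CPM, with an exact Poisson 95% interval of 0.144 to 0.441 that covers counting error only. Cardiomyocyte-like nuclei held 5 Slc5a2 UMIs, at 0.0772 CPM (0.0251 to 0.180), although they held 33.1% of all UMIs. Endocardial-like and pericyte-like nuclei held 3 each, lymphatic endothelial-like nuclei 2, and endothelial-like, myeloid-like and smooth muscle-like nuclei 1 each. The fibroblast-like UMIs were split 6, 4 and 4 over WT-CD, R403Q-CD and R403Q-EMPA, at 0.269 (0.0987 to 0.585), 0.214 (0.0583 to 0.548) and 0.326 CPM (0.0888 to 0.834). These intervals overlapped, and no difference was detectable at this depth.

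Slc5a1 gave 21 UMIs, spread over every library with 5 and 4 in R403Q-EMPA, 3 and 2 in R403Q-CD and 4 and 3 in WT-CD. Cardiomyocyte-like nuclei held 18 of them, or 85.7%, at a pooled 0.278 CPM (0.165 to 0.439). Fibroblast-like nuclei held 0 Slc5a1 UMIs, which allows a level of up to 0.0563 CPM by 3 counts. The 3 others lay in endothelial-like (2) and epicardial-like (1) nuclei. Cardiomyocyte-like nuclei of the WT-CD, R403Q-CD and R403Q-EMPA groups held 5, 4 and 9 Slc5a1 UMIs, at 0.291 (0.0944 to 0.679), 0.184 (0.0501 to 0.471) and 0.349 CPM (0.159 to 0.662). Again the intervals overlapped. The share of cardiomyocyte-like nuclei with a Slc5a1 UMI was 0.101% to 0.323% over the libraries at a median of 8516 UMIs per nucleus, against 0% in fibroblast-like nuclei at a median of 3518 UMIs. When every nucleus was thinned to 500 UMIs, the cardiomyocyte-like share was 0% in every library, and at 1000 UMIs it was 0% to 0.141%. Most Slc5a1 UMIs thus lay in muscle nuclei and most Slc5a2 UMIs outside them. Neither gene passed the filter on low counts in any class, so no test was made. In the GENCODE vM21 annotation Slc5a2 overlaps the protein-coding gene BC017158 on the opposite strand. Slc5a1 overlaps the pseudogenes Gm15936 on the same strand and 5033423K11Rik on the opposite strand. These names were not among the genes in the files, and whether strand was used in the counting is not given. Misplaced reads could weigh on counts this low.

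**Figure D1:**
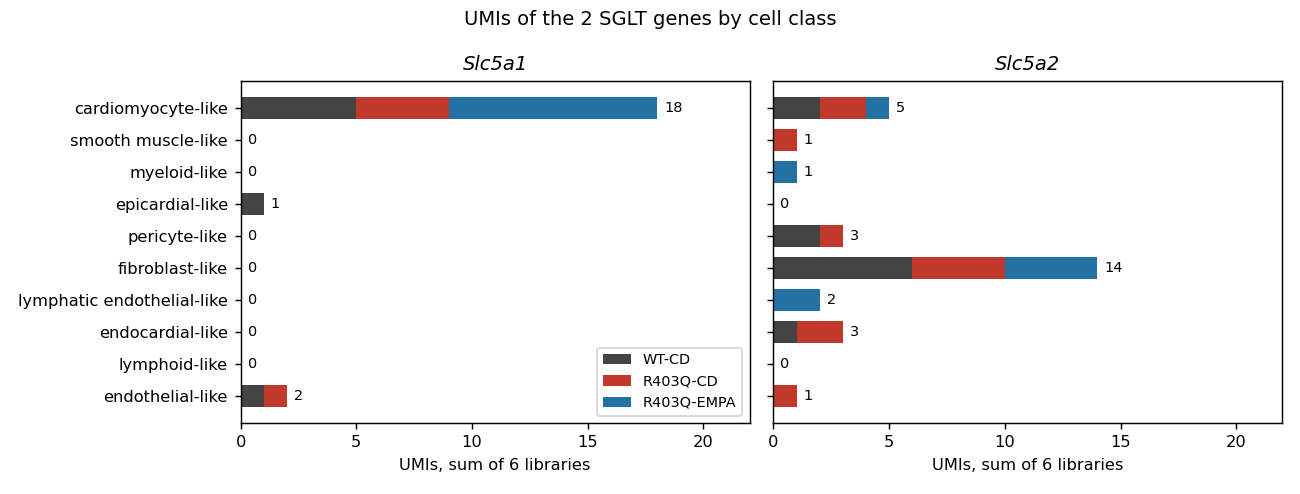
UMIs of Slc5a2 and Slc5a1 by cell class, counted over all kept nuclei of the 6 libraries. Slc5a1 shows 18 of 21 UMIs in cardiomyocyte-like nuclei, and Slc5a2 shows 14 of 30 in fibroblast-like nuclei.

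The exchanger gene Slc8a1 was found in every class and followed a steep order. Its mean level over 6 libraries was 8332 ± 1183 CPM (SD, n = 6) in cardiomyocyte-like nuclei. Smooth muscle-like nuclei came next at 3298 ± 352 CPM (range 2818 to 3769.8), then myeloid-like nuclei at 2389 ± 96.1 CPM (2223 to 2469) and epicardial-like nuclei at 1395 ± 246 CPM (1190.2 to 1840.4). None of these 4 neighbours overlapped in range, and epicardial-like nuclei lay above pericyte-like nuclei, at 799 ± 118 CPM (591 to 918), in every library. Fibroblast-like nuclei followed at 503 ± 69.2 CPM (447 to 639), a range that overlapped the pericyte-like one although pericyte-like nuclei were higher in 6 of 6 libraries. The lowest group was lymphatic endothelial-like (180 CPM), endocardial-like (177), lymphoid-like (89.4) and endothelial-like (85.7 CPM) nuclei, whose neighbouring ranges overlapped.

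Free RNA from broken cardiac muscle cells can enter any droplet, so each level was set against the sum of 10 cardiomyocyte markers in the same nuclei. A ratio of 1 means that the gene stood to these markers as it did in cardiomyocyte-like nuclei of the same library. For Slc8a1 this ratio was 4.38 to 7.62 in myeloid-like, 3.85 to 6.18 in smooth muscle-like, 2.87 to 5.78 in epicardial-like, 1.72 to 2.83 in pericyte-like and 1.29 to 2.38 in fibroblast-like nuclei. It was 0.139 to 0.312 in endothelial-like, 0.247 to 0.760 in lymphatic endothelial-like and 0.0547 to 0.255 in lymphoid-like nuclei, so Slc8a1 there was under the level scaled from the markers. A level under it does not show where the RNA came from. Set against Ttn alone, a choice made after the data were seen, the lymphatic endothelial-like ratio was 0.402 to 2.26 and the ratios of the other 2 classes stayed under 1. Thinned to 500 UMIs, 59.2% to 61.5% of myeloid-like and 71.0% to 79.5% of smooth muscle-like nuclei had a Slc8a1 UMI, against 82.6% to 92.8% of cardiomyocyte-like nuclei and 2.16% to 5.36% of endothelial-like nuclei. Without thinning the shares were 84.9% to 91.4%, 94.6% to 100%, 94.0% to 98.7% and 9.48% to 22.3%, at class medians of 2976.5, 3188, 8516 and 2831 UMIs. The macrophage marker genes Mrc1 (2347 to 3633 CPM) and F13a1 (6989.8 to 10378 CPM) were high in the myeloid-like class that carried this Slc8a1 level.

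The pump gene Atp1b1 was highest outside the muscle. Epicardial-like nuclei held 337 ± 78.6 CPM (SD, n = 6; 227 to 427), all above the cardiomyocyte-like level of 133 ± 30.6 CPM (102 to 182). The epicardial-like values rested on 375 UMIs in 245 nuclei. Lymphoid-like nuclei, at 95.2 CPM (31.3 to 237), overlapped the cardiomyocyte-like and the pericyte-like ranges, the latter 64.0 to 91.4 CPM around 71.1 CPM. All other classes lay at 7.89 to 21.3 CPM on average. The ratio to the cardiomyocyte markers was 22.3 to 115 in epicardial-like, 6.57 to 15.9 in lymphoid-like and 6.66 to 22.9 in pericyte-like nuclei, and 1.18 to 1.51 in endothelial-like and 1.41 to 2.11 in fibroblast-like nuclei. In the GENCODE vM21 annotation Atp1b1 overlaps Nme7 on the opposite strand, and whether strand was used in the counting is not given in the sources used here.

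The kinase gene Camk2d was the most evenly spread of the 3 genes with enough counts. Cardiomyocyte-like nuclei held 1208 ± 86.2 CPM (SD, n = 6; 1131 to 1336), above every other class in every library. Endocardial-like nuclei came next at 703 ± 62.4 CPM (610 to 773). The other 8 classes lay between 299 CPM on average in fibroblast-like nuclei and 470 CPM in lymphoid-like nuclei, whose range of 395 to 587 CPM stayed under the endocardial-like one. The ratio to the cardiomyocyte markers was at least 3.31 in each class and library.

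**Figure D2:**
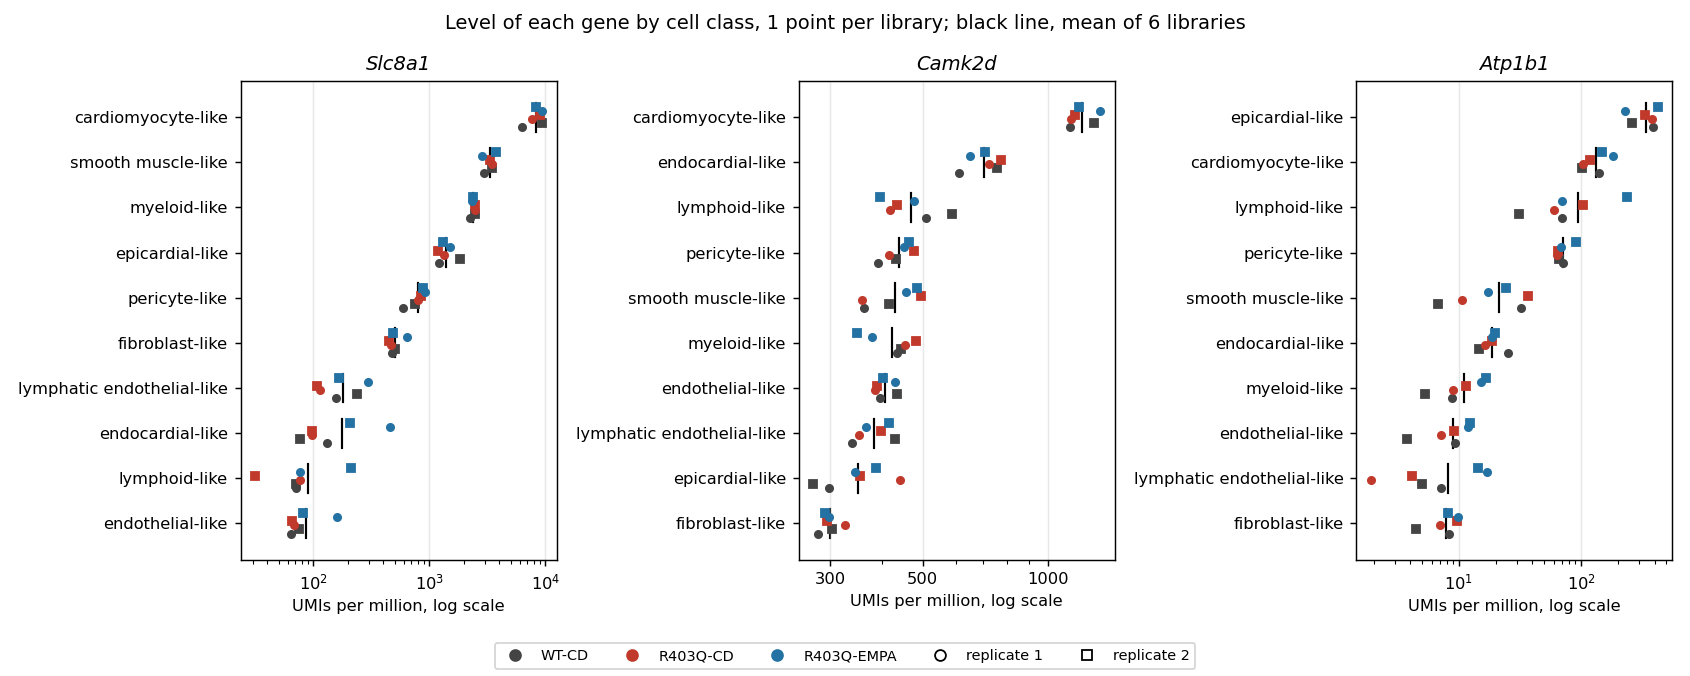
Levels of Slc8a1, Atp1b1 and Camk2d in CPM (log axis) by cell class, with 1 point for each of the 6 libraries. Slc8a1 falls from 8332 CPM in cardiomyocyte-like to 85.7 CPM in endothelial-like nuclei on average, Atp1b1 peaks in epicardial-like nuclei, and Camk2d class means run from 299 to 1208 CPM.

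The genes most like each member over classes were found by Pearson's r of log2(CPM + 1) over 60 sums, 10 classes in 6 libraries, among 13605 genes. For Slc8a1 these were Arhgef10l (r = 0.83), Ppp1r9a (0.83) and Plekhm2 (0.81). For Atp1b1 they were the potassium channel gene Kcnq5 (0.82), the monocarboxylate transporter gene Slc16a1 (0.81) and Gm49708 (0.78). For Camk2d they were Gm11264 (0.85), Txlnb (0.84) and the cadherin gene Cdh20 (0.84). The 60 points share libraries and depth, and the values are descriptions.

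In cardiomyocyte-like nuclei the exchanger did not move beyond the spread between libraries. Slc8a1 stood at 6341 and 9390.1 CPM in WT-CD, 7682 and 8999 CPM in R403Q-CD, and 9349 and 8232 CPM in R403Q-EMPA. The widest gap was between the 2 WT-CD libraries, which enclosed all others. The log2 fold change was 0.05 (SE 0.31) for R403Q-CD against WT-CD, 0.02 (SE 0.31) for R403Q-EMPA against R403Q-CD and 0.07 (SE 0.31) for R403Q-EMPA against WT-CD, with adjusted p of 0.994, 0.986 and 0.927 in edgeR's quasi-likelihood test. A gene was called where this p, adjusted by Benjamini-Hochberg over all genes tested in the class, was under 0.05. These small values had no stable sign. Over fits that left out 1 library at a time they ran from -0.27 to 0.50, -0.07 to 0.12 and -0.26 to 0.52, with the lowest of the first and last pair when WT-CD replicate 1 was out.

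Atp1b1 was highest in both EMPA libraries. Its level in cardiomyocyte-like nuclei was 140 and 102 CPM in WT-CD, 104 and 119 CPM in R403Q-CD, and 182 and 149 CPM in R403Q-EMPA, so that the EMPA libraries did not overlap either control group. Of 12679 genes with at least 100 UMIs in these nuclei, 54.8% did not overlap between R403Q-EMPA and R403Q-CD. The group means were 121 ± 26.7, 112 ± 10.2 and 165 ± 23.7 CPM (SD, n = 2). The log2 fold change was 0.51 (SE 0.16) against R403Q-CD and 0.39 (SE 0.16) against WT-CD, with edgeR adjusted p of 0.236 and 0.222, and neither was called. For R403Q-CD against WT-CD it was -0.12 (SE 0.16, adjusted p 0.959 in edgeR). Nme7, the overlapping gene, was at 14.3 and 12.0, 9.43 and 14.7, and 11.8 and 10.7 CPM in these nuclei, and its groups overlapped. The contrasts of R403Q-EMPA kept their direction without any single library, at 0.39 to 0.62 against R403Q-CD and 0.28 to 0.52 against WT-CD.

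Camk2d in cardiomyocyte-like nuclei stayed within a narrow band, at 1131 and 1292 CPM in WT-CD, 1135 and 1161 CPM in R403Q-CD, and 1336 and 1189 CPM in R403Q-EMPA. Both EMPA libraries lay above both R403Q-CD libraries, while the WT-CD range overlapped each of them. The log2 fold changes in the order above were -0.10, 0.08 and -0.02 (each SE 0.21), with edgeR adjusted p of 0.978, 0.911 and 0.978. Without WT-CD replicate 2 the first and last were 0.13 and 0.21. None of the 3 members that could be tested in cardiomyocyte-like nuclei was called in any of the 3 comparisons. The shares of all 14377 genes called there were 0.0904% for R403Q-CD against WT-CD, 0.236% for R403Q-EMPA against R403Q-CD and 4.01% for R403Q-EMPA against WT-CD. At an unadjusted p under 0.05, edgeR placed 0, 1 and 1 of the 3 members, in each case Atp1b1, beside 6.67%, 12.5% and 19.4% of all genes, and DESeq2 called 0 of them in each comparison. The edgeR p-values measure a spread within groups that all 6 libraries share in 1 fit, with 2 libraries in a group. Each comparison thus also depends on the group outside it.

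**Figure D3:**
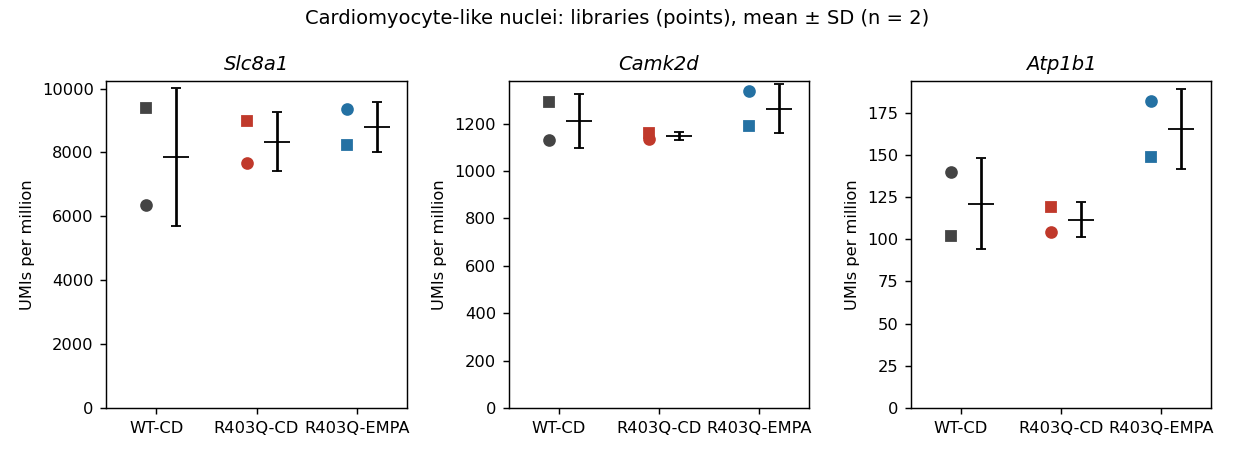
Levels of Slc8a1, Atp1b1 and Camk2d in cardiomyocyte-like nuclei, in CPM from 0, with 1 point per library and a bar at the mean of the 2 libraries of each group. Atp1b1 shows both R403Q-EMPA libraries (182 and 149 CPM) above all 4 control libraries, and Slc8a1 shows the WT-CD libraries farthest apart.

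The cardiomyocyte-like class was made of 3 clusters. Cluster 15 (5364 nuclei, Mylk4 and Mhrt among its leading genes) held most cardiomyocyte-like nuclei in all 6 libraries. Cluster 12 (549 nuclei), with the wall stress gene Nppb among its leading genes, gives values that rest on 341 and 138 nuclei in R403Q-EMPA, 15 and 44 in R403Q-CD and 11 and 0 in WT-CD. Cluster 11 (1047 nuclei) had the potassium channel gene Kcnj3 among its leading genes. Within cluster 15 alone, Atp1b1 was at 139 and 101 CPM in WT-CD, 103 and 116 CPM in R403Q-CD, and 151 and 138 CPM in R403Q-EMPA. The EMPA libraries still lay above R403Q-CD there, at a log2 fold change of 0.35 (edgeR adjusted p 0.416), but 1 of them lay under a WT-CD library. Camk2d in cluster 15 was at 1133 and 1290, 1139 and 1145, and 1212 and 1141 CPM in the same order, with overlapping groups. Cluster 12 carried 143 to 246 CPM of Atp1b1 in the 5 libraries that held it (median 224). For cluster 15 the Atp1b1 range was 101 to 151 CPM (median 127), and for cluster 11 it was 87.9 to 223 CPM (median 154). Camk2d was at 1343 to 1741 CPM in cluster 12 and 1133 to 1290 CPM in cluster 15. Slc8a1 in clusters 11, 12 and 15 ranged over 5925 to 11691, 5635 to 8930 and 6359 to 9509 CPM, which overlapped. The number of clusters in the class changed with the filters on nuclei, to 2 with at least 1000 UMIs and 4 with predicted doublets kept.

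Over all kept nuclei together the same genes looked different. Slc8a1 went from 2080 and 2707 CPM in WT-CD through 2740 and 3227 CPM in R403Q-CD to 3902 and 4291 CPM in R403Q-EMPA. Camk2d went from 566 and 627 through 620 and 650 to 761 and 787 CPM, and Atp1b1 from 54.6 and 36.4 through 43.7 and 52.0 to 80.2 and 85.2 CPM. The share of cardiomyocyte-like nuclei among kept nuclei was also higher with EMPA, at 19.5% and 25.03% against 9.37% to 14.2% without it. Within WT-CD the order was the other way for Slc8a1 and Camk2d, as replicate 1 had the higher share (11.9% against 9.37%) and the lower levels. In such sums more muscle nuclei and more RNA per nucleus cannot be told apart, and within cardiomyocyte-like nuclei Slc8a1 and Camk2d gave the uncalled values above.

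The only call on a member fell in endocardial-like nuclei, the inner lining of the ventricle, and it concerned Slc8a1. Its level was 131 and 76.3 CPM in WT-CD, 97.2 and 97.0 CPM in R403Q-CD, and 455 and 205 CPM in R403Q-EMPA. Both EMPA libraries lay above all 4 others, and the EMPA libraries differed from each other by more than the control libraries did. The log2 fold change was 1.75 (SE 0.33) against R403Q-CD and 1.66 (SE 0.32) against WT-CD, with edgeR adjusted p of 0.0409 and 0.0276. For R403Q-CD against WT-CD it was -0.09 (SE 0.33; adjusted p 1.00 in edgeR). In this class 0.631% of 11574 genes were called for R403Q-EMPA against R403Q-CD and 1.85% for R403Q-EMPA against WT-CD. For R403Q-CD against WT-CD edgeR called 0% of them, with 423 genes at an unadjusted p under 0.05 and 0 called by DESeq2. In DESeq2 the Slc8a1 rise was not called, with adjusted p of 0.0781 against R403Q-CD and 0.0806 against WT-CD.

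The endocardial-like call depended on single libraries, and the size of the fold change depended most on R403Q-EMPA replicate 1. The ratio of Slc8a1 to the 10 cardiomyocyte markers was 1.26 and 0.476 in R403Q-EMPA, against 0.258 and 0.292 in R403Q-CD and 0.530 and 0.357 in WT-CD. Only replicate 1 of R403Q-EMPA lay above the level scaled from its cardiomyocyte markers. Replicate 2, at 205 CPM, lay under it, as did all 4 control libraries. Such a level is no measure of free RNA, as Slc8a1 in endothelial-like nuclei came to 0.139 to 0.312 of theirs. Lying under it does not show where the RNA came from. With Ttn alone as the marker, the ratio was 2.46 in that replicate 1 and 0.494 to 1.51 in the other 5 libraries, with WT-CD replicate 1 the highest of those. The 10 cardiomyocyte markers summed to 1195 to 1711 CPM in endocardial-like nuclei of WT-CD, 1929 to 2572 CPM of R403Q-CD and 1989 to 2734 CPM of R403Q-EMPA. In replicate 1 of R403Q-EMPA 47.4% of endocardial-like nuclei had a Slc8a1 UMI, against 17.4% to 21.3% in the other 5 libraries. Thinned to 500 UMIs the share was 16.9% against 1.97% to 7.60%. Nuclei with at least 5 Slc8a1 UMIs numbered 76 of 661 there, and 4 to 17 in each other library. Without replicate 1 of R403Q-EMPA the log2 fold change was 1.06 (edgeR adjusted p 0.266) against R403Q-CD and 0.97 (0.203) against WT-CD. The call against R403Q-CD was also lost without R403Q-CD replicate 1 (1.75, edgeR adjusted p 0.256) or replicate 2 (1.74, 0.298), and the call against WT-CD without WT-CD replicate 2 (1.37, 0.0817). The endocardial markers themselves, 8 genes, summed to 14990.3 to 16044 CPM in WT-CD, 15283 to 17025 CPM in R403Q-CD and 8973 to 11839 CPM in R403Q-EMPA, lowest in both EMPA libraries. In the same nuclei the 7 lymphatic endothelial markers summed to 336 and 321 CPM in R403Q-EMPA and 167 to 267 CPM in the other 4 libraries. The 9 endothelial markers summed to 7011 and 5608 CPM in R403Q-EMPA and 4824 to 5824 CPM in the others. The part of these shifts in the Slc8a1 result was not tested.

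**Figure D4:**
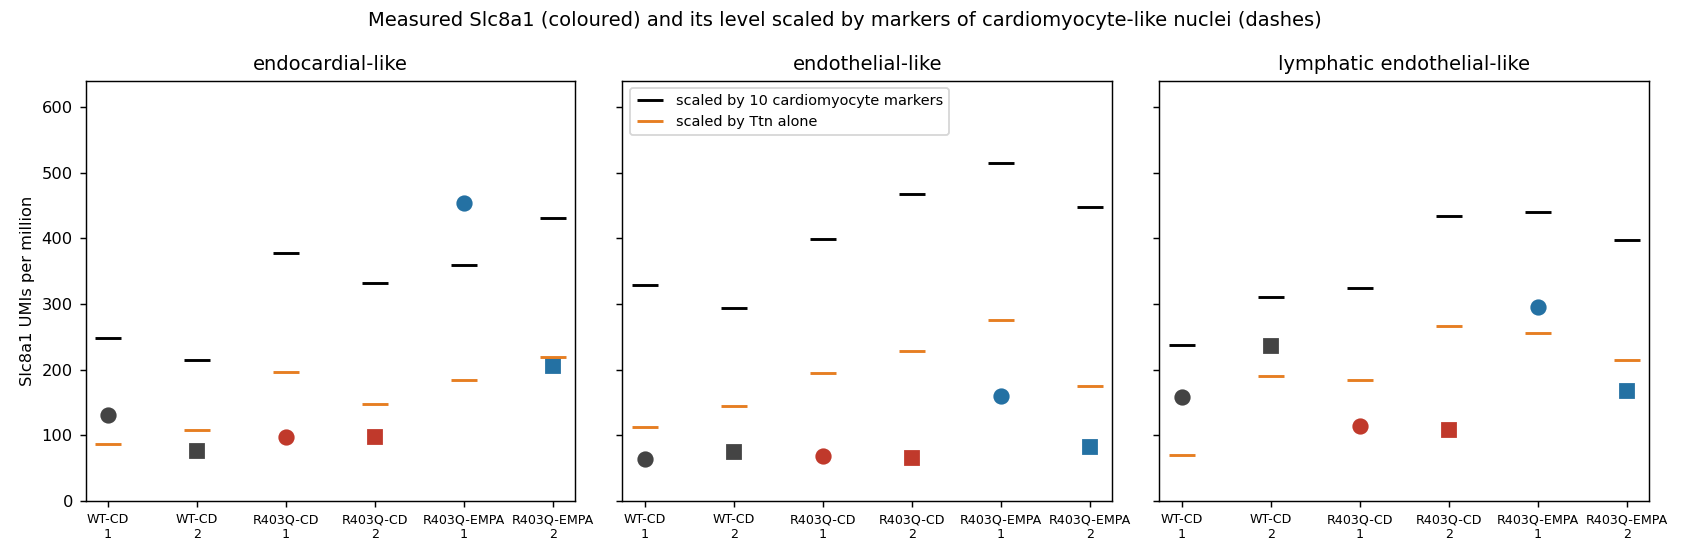
Slc8a1 in 3 endothelial-type classes, in CPM from 0, with 1 coloured point per library, and dashes for the level expected if Slc8a1 stood to 10 cardiomyocyte markers (black) or to Ttn alone (orange) as in cardiomyocyte-like nuclei. Replicate 1 of R403Q-EMPA is the highest library in the endocardial-like (455 CPM), endothelial-like (160 CPM) and lymphatic endothelial-like (295 CPM) classes, and lies above its black dash in the endocardial-like class alone.

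Replicate 1 of R403Q-EMPA was also highest in the related vessel classes. Endothelial-like nuclei held 63.7 and 74.4 CPM of Slc8a1 in WT-CD, 68.4 and 65.1 CPM in R403Q-CD, and 160 and 82.0 CPM in R403Q-EMPA, a log2 fold change of 0.85 (SE 0.26) against R403Q-CD with an edgeR adjusted p of 0.309. Lymphatic endothelial-like nuclei held 158 and 237, 114 and 107, and 295 and 168 CPM, a log2 fold change of 1.11 (SE 0.28) against R403Q-CD with an edgeR adjusted p of 0.281. The levels of both classes were under the black dashes of the plot, the marker-scaled level, in every library. They were under the Ttn-scaled level in every endothelial-like sum and in 3 of 6 lymphatic endothelial-like sums. A single endothelial-like cluster, number 8 (1123 nuclei), led by the arterial genes Gja5 and Sox17, held 211 to 425 CPM of Slc8a1, while clusters 7 and 9 held 42.9 to 132 CPM. In cluster 8 the levels were 408 and 343 CPM in WT-CD, 274 and 211 CPM in R403Q-CD, and 425 and 384 CPM in R403Q-EMPA, lowest in the 2 R403Q-CD libraries. No test was run within this cluster, and no marker-scaled level was computed for it.

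Over all classes the members gave 28 tests in each comparison, 10 for Slc8a1, 10 for Camk2d and 8 for Atp1b1. None was called for R403Q-CD against WT-CD by edgeR, where 0.0152% of 98507 gene-by-class tests were called. At an unadjusted p under 0.05 edgeR placed 1 of the 28, Slc8a1 in lymphatic endothelial-like nuclei (log2 fold change -0.83), which is 3.57% beside 4.26% of all tests, and DESeq2 called 0. The endocardial-like Slc8a1 rise was the single call for R403Q-EMPA against R403Q-CD and for R403Q-EMPA against WT-CD, where 0.3% and 1.36% of all tests were called, and DESeq2 called 0 of the 28 in each. At an unadjusted p under 0.05 edgeR placed 6 and 7 of the 28 there, or 21.4% and 25%, beside 9.67% and 12.8% of all tests. Slc8a1 in myeloid-like nuclei was at 2223 and 2465, 2469 and 2449.9, and 2336 and 2392 CPM, with log2 fold changes of 0.03, -0.07 and -0.04. In pericyte-like nuclei it was 591 and 758 CPM in WT-CD, 789.8 and 853 CPM in R403Q-CD, and 918 and 886 CPM in R403Q-EMPA. The change there was 0.30 (SE 0.17; edgeR adjusted p 1.00) for R403Q-CD and 0.39 (SE 0.17; edgeR adjusted p 0.350) for R403Q-EMPA, each against WT-CD. Camk2d in myeloid-like nuclei was 433 and 443 CPM in WT-CD, 453 and 483 CPM in R403Q-CD, and 379 and 347 CPM in R403Q-EMPA, a log2 fold change of -0.38 (SE 0.15; edgeR adjusted p 0.642) against R403Q-CD. Of the 8 Atp1b1 tests for R403Q-EMPA against R403Q-CD, 7 had a log2 fold change above 0, with a median of 0.40 and none called.

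The wider sodium machinery was read in cardiomyocyte-like nuclei from 8 lists with 85 genes, members included, of which 48 were tested. The edgeR test called 0 of them for R403Q-CD against WT-CD, 1 lower for R403Q-EMPA against R403Q-CD, and 1 higher and 3 lower for R403Q-EMPA against WT-CD. These are 0%, 2.08% and 8.33% of the 48, beside 0.0904%, 0.236% and 4.01% of all genes tested in these nuclei. At an unadjusted p under 0.05 the edgeR numbers were 3, 8 and 11, or 6.25%, 16.7% and 22.9%, close to the 6.67%, 12.5% and 19.4% of all genes. DESeq2 called 1, 2 and 6 of the 48, or 2.08%, 4.17% and 12.5%. The shares of all genes above are those of edgeR. DESeq2 called more of all genes than edgeR in each comparison, with the numbers in the closing section on processing. The single call against R403Q-CD was lost without any of the 4 libraries compared, and 2 of the 4 calls against WT-CD were lost without replicate 1 of R403Q-EMPA. The median log2 fold changes of the 48 genes were -0.09, -0.01 and -0.05, beside -0.01, 0.01 and -0.00 over all genes tested. Other classes' markers moved in these nuclei too. The 7 smooth muscle markers summed to 165 to 170 CPM in WT-CD, 118 to 177 CPM in R403Q-CD and 51.2 to 101 CPM in R403Q-EMPA, and the 9 endothelial markers to 1639.7 to 2113, 1505 to 1576 and 991 to 1335 CPM. The 7 adipocyte markers went the other way, from 46.2 to 48.1 through 70.9 to 88.2 to 84.4 to 131 CPM. Their part in the calls below was not tested.

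Of 7 tested sodium-proton exchangers, which bring in sodium as they extrude acid, 1 was called by edgeR and DESeq2, and it was lower. Slc9a2 (NHE2) was at 15.3 and 13.4 CPM in WT-CD, 11.9 and 11.5 CPM in R403Q-CD, and 4.91 and 4.24 CPM in R403Q-EMPA. The EMPA libraries lay under all 4 others. The log2 fold change was -1.40 (SE 0.20; edgeR adjusted p 0.0350) against R403Q-CD and -1.70 (SE 0.20; edgeR adjusted p 0.00422) against WT-CD. Within cluster 15 alone the same contrasts gave -1.31 (edgeR adjusted p 0.0620) and -1.49 (0.0124). Leaving out any of the 4 libraries compared ended the call against R403Q-CD (-1.49 to -1.34, edgeR adjusted p 0.0888 to 0.279), and no single library ended the call against WT-CD. The related genes Slc9a8 and Slc9a7 were not called.

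Of 7 tested sodium-calcium exchangers, Slc8a1 included, 1 was called by edgeR or DESeq2. Slc24a2, a potassium-dependent sodium-calcium exchanger (NCKX2), was at 49.6 and 62.1 CPM in WT-CD, 123 and 162 CPM in R403Q-CD, and 229 and 191 CPM in R403Q-EMPA, and the 3 groups did not overlap. It rose in R403Q-EMPA against WT-CD by 1.83 on the log2 scale (SE 0.21; edgeR adjusted p 0.00345). For R403Q-CD against WT-CD the value was 1.33 (SE 0.21; edgeR adjusted p 0.0606), which DESeq2 called (adjusted p 3.36e-06) as its single call on a list gene in that comparison, and for R403Q-EMPA against R403Q-CD 0.50 (SE 0.20; edgeR adjusted p 0.349). Within cluster 15 alone the rise against WT-CD was 1.45 (edgeR adjusted p 0.0108). No single library ended that call, and without WT-CD replicate 2 the rise of R403Q-CD over WT-CD passed the threshold as well (1.63, edgeR adjusted p 0.0276). The mitochondrial exchanger gene Slc8b1 was at 3.23 to 5.05 CPM over the libraries, and Slc24a3 and Slc24a4 reached at most 5.10 and 3.57 CPM.

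Of 10 tested sodium channel genes and channel partners, edgeR called 1, and DESeq2 called it and Fgf13. Scn4a, known as the skeletal muscle sodium channel, was at 11.3 and 11.5 CPM in WT-CD, 8.64 and 5.05 CPM in R403Q-CD, and 2.11 and 2.59 CPM in R403Q-EMPA, with no overlap between groups. It fell in R403Q-EMPA against WT-CD by 2.35 on the log2 scale (SE 0.33; edgeR adjusted p 0.00689), and for R403Q-EMPA against R403Q-CD the value was -1.59 (SE 0.33; edgeR adjusted p 0.0898), which DESeq2 called (adjusted p 0.0114). Without R403Q-EMPA replicate 1 the contrast with WT-CD gave -2.16 (edgeR adjusted p 0.0535). Fgf13, a channel-binding growth factor homologue, was at 4415 and 4949.97 CPM in WT-CD, 4194 and 4236 CPM in R403Q-CD, and 2875 and 3446 CPM in R403Q-EMPA, lowest in both EMPA libraries (log2 fold change against WT-CD -0.64, SE 0.25, edgeR adjusted p 0.199, DESeq2 adjusted p 0.0233). Its relative Fgf12 was at 27.2 CPM in R403Q-EMPA replicate 1 and at 0.497 to 7.03 CPM in the other 5 libraries.

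Of 5 tested CaMKII genes, Camk2d included, 1 was called by edgeR and DESeq2. Camk2a, known as the main neuronal form, was at 53.5 and 58.1 CPM in WT-CD, 52.9 and 52.3 CPM in R403Q-CD, and 35.7 and 33.7 CPM in R403Q-EMPA. It fell in R403Q-EMPA against WT-CD by 0.76 on the log2 scale (SE 0.15; edgeR adjusted p 0.0284), and against R403Q-CD the value was -0.66 (SE 0.15; edgeR adjusted p 0.125). Within cluster 15 alone the contrast with WT-CD gave -0.63 (edgeR adjusted p 0.0585). The call was also lost without any single library other than WT-CD replicate 1 (edgeR adjusted p 0.0538 to 0.180), and the contrast with R403Q-CD passed the threshold without either WT-CD library (0.0356 and 0.0360). Camk2g was at 95.6 to 144 CPM, Camk2b at 2.22 to 5.19 CPM and the inhibitor gene Camk2n1 at 2.19 to 3.87 CPM, with overlapping groups.

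The other lists held no edgeR call in cardiomyocyte-like nuclei, and DESeq2 called 1 of their genes, Slc5a3. Among 8 tested genes of the sodium pump, the pump regulator gene Fxyd1 (phospholemman) was at 98.6 to 187 CPM, with both extremes in WT-CD. Of 4 tested sodium cotransporters, the bicarbonate transporter gene Slc4a4 (NBCe1) was at 299 to 333 CPM, Slc4a7 at 35.9 to 47.1 CPM and Slc12a2 (NKCC1) at 29.98 to 34.8 CPM. Of the calcium partners, Ryr2, the calcium release channel, was at 10846 to 16974 CPM, the calcium channel gene Cacna1c at 8504 to 12139 CPM, and the calcium pump gene Atp2a2 at 3261 and 3517 CPM with EMPA against 3891 to 4239 CPM in the controls (log2 fold change against WT-CD -0.32, SE 0.22, edgeR adjusted p 0.469). Of 13 genes of the SGLT family, 2 had enough counts to be tested, the inositol transporter gene Slc5a3 and the vitamin transporter gene Slc5a6 (2.88 to 5.10 CPM). Slc5a3 was at 11.1 and 10.7, 10.9 and 16.1, and 27.5 and 18.2 CPM, a log2 fold change of 1.00 against WT-CD (SE 0.24; edgeR adjusted p 0.0516), and DESeq2 called it there (adjusted p 0.0237).

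**Figure D5:**
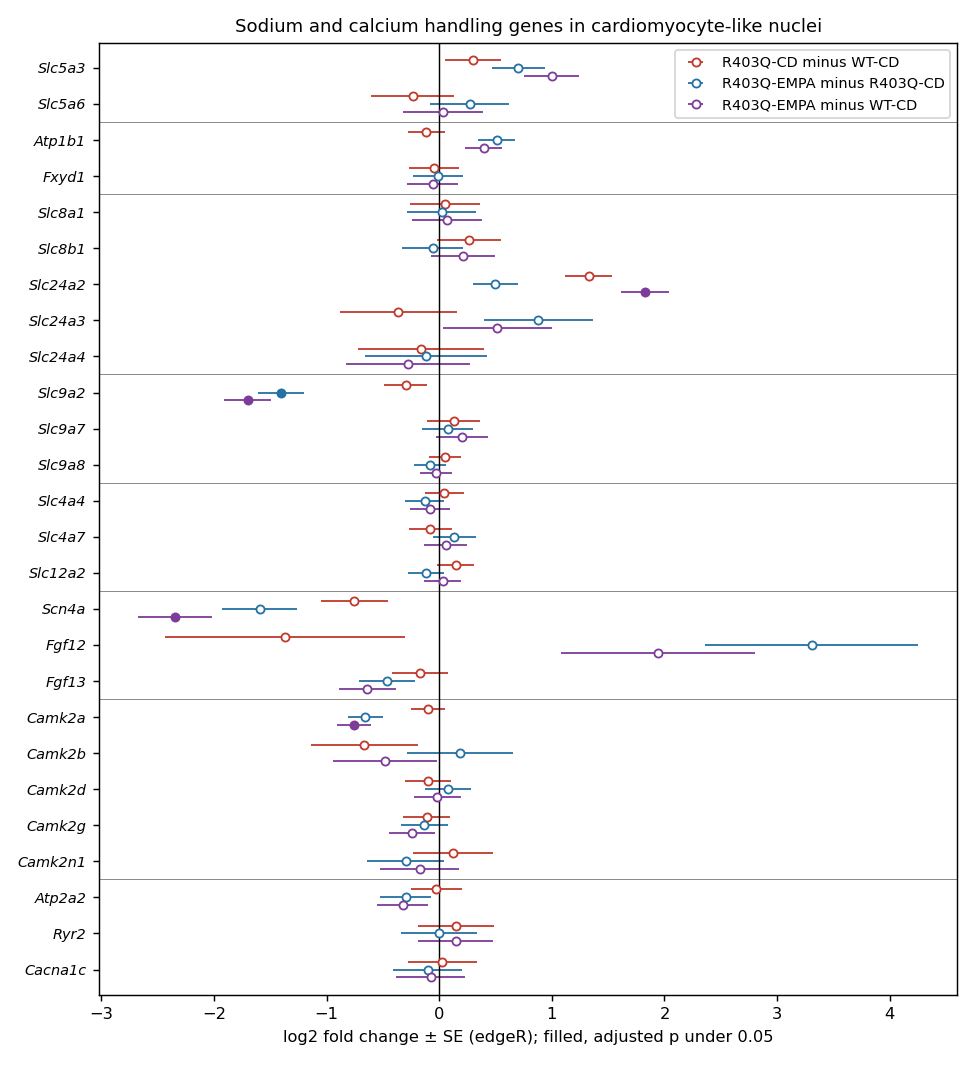
Log2 fold changes (horizontal axis, points with bars of 1 SE from edgeR) of named sodium and calcium handling genes and the members Slc8a1, Atp1b1 and Camk2d in cardiomyocyte-like nuclei, in the 3 comparisons, with filled points for an adjusted p under 0.05. Slc24a2 lies at 1.83 and Slc9a2, Scn4a and Camk2a lie at -1.70, -2.35 and -0.76 for R403Q-EMPA against WT-CD.

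Outside the cardiomyocyte-like class the list genes gave 277 tests in each comparison. The edgeR test called 0 for R403Q-CD against WT-CD, with 26 (9.39%, beside 3.85% of all tests in these classes) at an unadjusted p under 0.05 and 0 by DESeq2. It called 6 higher and 2 lower for R403Q-EMPA against R403Q-CD, and 8 higher and 4 lower for R403Q-EMPA against WT-CD, 1 higher in each being the endocardial-like Slc8a1. The calls of the 3 comparisons are 0%, 2.89% and 4.33% of the 277, beside 0.00238%, 0.311% and 0.913% of all 84130 gene-by-class tests in the same classes. DESeq2 called 7 higher and 4 lower, and 9 higher and 6 lower, without the endocardial-like Slc8a1 in either and without the endocardial-like Slc4a4 against R403Q-CD. These are 3.97% and 5.42% of the 277. The shares of all tests above are those of edgeR, and the DESeq2 shares for these classes are not given here. The genes below were named after their values were seen. Slc5a3, of the same transporter family as the EMPA target, was at 15.4 and 11.6 CPM in WT-CD, 17.3 and 15.9 CPM in R403Q-CD, and 49.6 and 48.3 CPM in R403Q-EMPA in pericyte-like nuclei. It rose by 1.52 (SE 0.24; edgeR adjusted p 0.00755) against R403Q-CD and by 1.84 (SE 0.24; edgeR adjusted p 0.000593) against WT-CD on the log2 scale. In fibroblast-like nuclei it was at 16.5 and 13.5, 13.5 and 20.4, and 39.8 and 50.8 CPM, a rise of 1.37 (SE 0.22; edgeR adjusted p 0.0480) against R403Q-CD. The nuclei of this class fell into 4 clusters in different numbers, with 161 and 400 nuclei of R403Q-EMPA in cluster 3 against 855 to 1096 in each other library, and 811 and 413 in cluster 4 against 306 to 633. In each of the 4 clusters both EMPA libraries held more Slc5a3 than the other 4 libraries, at 34.4 to 39.95 CPM against 10.0 to 16.6 CPM in cluster 3 and 35.9 to 58.8 CPM against 13.0 to 31.6 CPM in cluster 4, with no test made by cluster. This split reuses the libraries that gave the call and is no separate support for it. The share of all genes without overlap by fibroblast-like cluster is not given here. In endothelial-like nuclei the rise against WT-CD was 1.07 (SE 0.18; edgeR adjusted p 0.0331). In these 3 classes both EMPA libraries lay above all 4 others. The pericyte-like call against WT-CD held without any single library. The pericyte-like call against R403Q-CD was lost without R403Q-EMPA replicate 1 or either R403Q-CD library (edgeR adjusted p 0.0515 to 0.157), the fibroblast-like call against R403Q-CD without any of the 4 libraries compared (0.0597 to 0.427), and the endothelial-like call without any R403Q library (0.0711 to 0.171).

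Slc5a3 overlaps Mrps6, a gene of the mitochondrial ribosome, on the same strand in the GENCODE vM21 annotation, so the counting could divide reads between them. Mrps6 was at 28.0 and 19.8, 22.9 and 29.1, and 83.8 and 77.9 CPM in pericyte-like nuclei, in the order WT-CD, R403Q-CD and R403Q-EMPA. In fibroblast-like nuclei it was at 24.8 and 21.2, 24.3 and 27.8, and 60.2 and 69.7 CPM. A change in Slc5a3 and a change in Mrps6 cannot be told apart here.

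Other calls outside cardiomyocyte-like nuclei fell on pump and channel genes. In fibroblast-like nuclei Atp1a4, a pump subunit known from sperm, was at 19.0 and 25.2, 16.1 and 15.2, and 3.73 and 6.15 CPM (log2 fold change against WT-CD -2.25, SE 0.28, edgeR adjusted p 0.0154; against R403Q-CD -1.75, SE 0.29, edgeR adjusted p 0.0495). The sodium leak channel gene Nalcn was at 146 and 156, 166 and 172, and 66.0 and 90.5 CPM in the same nuclei (against R403Q-CD -1.16, SE 0.17, edgeR adjusted p 0.0411), and Fgf12 was lower against WT-CD (-1.32, SE 0.16, edgeR adjusted p 0.0154). By fibroblast-like cluster, with the unequal numbers of nuclei given above and no test, Nalcn was lower in both EMPA libraries than in the other 4 in all 4 clusters. Atp1a4 was so in clusters 2, 3 and 4, and Fgf12 in clusters 3 and 4 alone. For these genes too the split reuses the libraries that gave the calls, without a share over all genes beside it. In cluster 2, the largest (5312 nuclei), Fgf12 was at 18.6 to 30.7 CPM with EMPA and 7.22 to 34.2 CPM in the others. In endocardial-like nuclei Fxyd5, a pump regulator, was at 67.6 and 54.5, 62.7 and 73.9, and 202 and 134 CPM (against R403Q-CD 1.27, SE 0.21, edgeR adjusted p 0.0213), and Slc4a4 at 16.0 and 17.2, 7.84 and 9.29, and 33.9 and 23.2 CPM (1.70, SE 0.30, edgeR adjusted p 0.0325, not called by DESeq2). The level scaled from cardiomyocyte markers was 7.59 to 16.2 CPM for Slc4a4. The R403Q-CD libraries lay under it, which does not show where their Slc4a4 RNA came from. In lymphatic endothelial-like nuclei Scn3a was higher against WT-CD (1.42, SE 0.22, edgeR adjusted p 0.0238). In pericyte-like nuclei Atp1a4 was lower (-1.79, SE 0.31, edgeR adjusted p 0.00658) and Ryr2 higher (1.11, SE 0.20, edgeR adjusted p 0.00861), both against WT-CD. Ryr2 there was at 66.8 and 86.1 CPM in WT-CD, 155 and 112 CPM in R403Q-CD, and 154 and 182 CPM in R403Q-EMPA. All 6 libraries lay under the level scaled from cardiomyocyte markers, 452 to 914 CPM, which again does not show where the RNA came from. Without replicate 1 of R403Q-EMPA, every call in this paragraph but that of Ryr2 was lost (edgeR adjusted p 0.0588 to 0.500), and without replicate 2 that of Ryr2 was lost (0.0597). The calls against R403Q-CD were also lost without R403Q-CD replicate 2 (edgeR adjusted p 0.162 to 0.272).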

How the data were processed

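Single-nucleus RNA sequencing was made from the LV, with 2 libraries in each of 3 groups. The authors deposited filtered matrices of whole UMI counts per gene and barcode. The submitters' processing notes name Cell Ranger 8.0.1 and GRCm39. Strand settings and intron counting are not given in the sources used here.

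Barcodes with at least 500 UMIs, at least 300 genes and at most 5% mitochondrial UMIs were kept, and predicted doublets were removed per library (scanpy 1.11.5). The mitochondrial maximum removed 19927 of 69249 barcodes, more in R403Q-EMPA (4328 and 4316) than in R403Q-CD (2960 and 3589) or WT-CD (2866 and 1868). After scaling each nucleus to 10000 counts and taking logs, 2000 variable genes, with all list genes left out, gave 30 principal components, 15 neighbours and Leiden clusters at resolution 1, without batch integration. A cluster took a class name when at least 3 of the markers of that class were found in at least 10% of its nuclei at a fold of at least 2 over the rest. Adipocyte-like (10), Schwann-like (59) and unnamed (35) nuclei were not tested.

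Counts summed per library and class were tested in edgeR 4.0.16 (R 4.3.3), with TMM scaling, the default filter on low counts, a quasi-likelihood fit of all 6 libraries by group, and Benjamini-Hochberg adjustment over the genes of a class, with a threshold of 0.05. With 2 libraries per group, p-values measure the spread within groups, shared over the 6 libraries of the fit, which may be technical in part. The tests were first run on simulated data. Intervals are exact Poisson at 95%, a count of 0 allows up to 3 counts, and both cover counting error only. Nuclei were thinned to 500 UMIs to compare shares.

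The members and gene lists were chosen with earlier results of these data known. Named list genes were those called in cardiomyocyte-like nuclei and up to 3 per list with the highest mean CPM there, and the 3 genes most similar to each tested member were sought on log2(CPM + 1) among genes with at least 500 UMIs. Alternatives were DESeq2 1.42.0, other size factors, no filter on low counts, fits on 4 libraries, each library left out, and other filters on nuclei with the clustering repeated. The splits by cardiomyocyte-like and fibroblast-like cluster, the share of genes without overlap and the ratio to Ttn alone were added after the data were seen. Some list genes are not reported here.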

Additional observations from a re-analysis of the deposited data

Results flagged for a closer look

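Camk2d libraries of R403Q-EMPA and R403Q-CD did not overlap in 4 of 10 classes, and their order differed between these classes. Both EMPA libraries lay above both R403Q-CD libraries in cardiomyocyte-like and endothelial-like nuclei (log2 fold change 0.08 in each), and below them in endocardial-like (-0.17) and myeloid-like nuclei (-0.38). The fold changes differed by 0.247 between cardiomyocyte-like and endocardial-like nuclei and by 0.464 between cardiomyocyte-like and myeloid-like nuclei. Of genes with at least 100 UMIs, 40.6% (myeloid-like) to 54.8% (cardiomyocyte-like) did not overlap in these classes. Neither difference was tested, none of the 4 values was called by edgeR, and the cardiomyocyte-like value was -0.00 in the largest cluster alone.

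Barcodes above the mitochondrial maximum, which entered the comparisons only in the alternative with no mitochondrial filter, held 7 Slc5a1 UMIs, at 0.248 CPM with an exact Poisson 95% interval of 0.0998 to 0.511. They are listed because these barcodes lie outside the main comparisons. Kept nuclei of all classes stood at 0.107 CPM (0.0664 to 0.164), an interval that overlaps the first. The excluded barcodes took classes only in the alternative with no mitochondrial filter, where cardiomyocyte-like nuclei numbered 16666 instead of 6960. Values of excluded and kept barcodes are thus not matched for class. The same barcodes held Atp1b1 at 105 CPM against 57.7 CPM in kept nuclei, and Slc8a1 at 1335 CPM against 3126 CPM.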

How the results depend on the processing

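Fold changes of Atp1b1 for R403Q-EMPA in cardiomyocyte-like nuclei kept their direction and stayed uncalled in all 17 alternatives, with edgeR or DESeq2 adjusted p of 0.0885 to 0.986 against R403Q-CD and 0.0858 to 0.662 against WT-CD. Near-zero values changed sign. Slc8a1 in cardiomyocyte-like nuclei was -0.15 for R403Q-CD and -0.039 for R403Q-EMPA, each against WT-CD, with no mitochondrial filter. Camk2d against R403Q-CD was -0.0060 without cluster 12 and -0.0034 in the largest cluster alone, and against WT-CD it was 0.018 with no filter on low counts, 0.0099 with predicted doublets kept and 0.0086 without cluster 11. Over the fits that left out 1 library, for the mutation, for EMPA in mutant hearts and for both against wild type, Slc8a1 ran from -0.27 to 0.50, -0.071 to 0.12 and -0.26 to 0.52, Atp1b1 from -0.22 to 0.025, 0.39 to 0.62 and 0.28 to 0.52, and Camk2d from -0.27 to 0.13, 0.03 to 0.13 and -0.20 to 0.21. Camk2a ran from -0.25 to 0.082 for R403Q-CD against WT-CD. None of these member values was called in any alternative.

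The endocardial-like Slc8a1 rise was higher in R403Q-EMPA in all 14 alternatives and called in 10 for each contrast. DESeq2 gave 1.74 (adjusted p 0.0781) and 1.65 (0.0806) against R403Q-CD and WT-CD, the fit on 4 libraries gave 1.66 (edgeR adjusted p 0.0672) against WT-CD, and leaving out 1 library gave 1.06 to 2.19 and 0.97 to 2.11. The cause was not tested.

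List genes called in cardiomyocyte-like nuclei for R403Q-CD against WT-CD went from 0 to 2 with no filter on low counts and to 1 with DESeq2, with no mitochondrial filter or with doublets kept. Those for R403Q-EMPA against R403Q-CD went from 1 to 6 with no filter on low counts, to 2 with DESeq2, with 4 libraries or without cluster 11, and to 0 with no mitochondrial filter or without cluster 12. Those for R403Q-EMPA against WT-CD went from 4 to 9 with no filter on low counts. Leaving out 1 library gave 0 to 1, 0 to 2 and 2 to 5. All genes called in cardiomyocyte-like nuclei in the 3 comparisons numbered 13, 34 and 576. They numbered 314, 645 and 1406 with no filter on low counts, 97, 211 and 736 with DESeq2, 11, 196 and 276 with 4 libraries, 452, 2 and 825 with no mitochondrial filter, and 25, 27 and 386 in the largest cluster alone. The endocardial-like numbers were 0, 73 and 214, against 48, 498 and 777 with no filter on low counts, 0, 112 and 177 with DESeq2, and 0, 212 and 107 with 4 libraries. Without the mitochondrial filter the class held 16666 nuclei and the doublet caller marked 0% of barcodes in R403Q-EMPA replicate 1, so those fits hold undetected doublets.

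No paired analysis was possible because the replicate numbers follow accession order and pair no samples. With predicted doublets kept, mean Slc8a1 was 2156 CPM in myeloid-like and 264 CPM in lymphatic endothelial-like nuclei, and without the mitochondrial filter mean Camk2d in cardiomyocyte-like nuclei was 1099 CPM. The depth limits Slc5a2 and Slc5a1 most, at 30 and 21 UMIs in all.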
